A study of Mus musculus with 2 samples.

Results

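The interferon-stimulated genes are the genes that cells switch on when interferon reaches its receptor. The 49 members described here were chosen by symbol, and all 49 were found among the 23284 genes of the authors' deposited table. The table compares macrophages collected from the infarcted hearts of C57BL/6 mice on day 3 after ligation of a coronary artery. Ly6Chi macrophages gave 1 library and Ly6Clo macrophages gave another, and the names refer to the surface level of the monocyte antigen Ly6C. Both populations came from infarcted hearts of the same strain and day, and no uninjured heart is among the groups. The sources used here do not give how many mice went into a library or how the populations were separated.

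Type I interferons act through a receptor made of IFNAR1 and IFNAR2. Kinases of the JAK family then phosphorylate STAT proteins, among them STAT2, which join IRF9 and bind the interferon-stimulated response element (ISRE). Interferon gamma, the type II interferon, acts through its own receptor and through STAT pairs that bind the gamma-activated sequence (GAS). In mouse infarcts, macrophages that take up the remains of dying cells are known to activate this program through the DNA sensor cGAS and IRF3.

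The value per gene is a signed score deposited by the authors, here called the statistic, with the gene's rank by the size of that score among all genes. Its unit is not stated, so it is not read as a fold change. The table's 2 columns of single-library values were not used, because their headings fit neither sample's labels. The sign is therefore given to neither population, and members are described as lying on the negative or the positive side. Ly6c2 and Ly6c1, genes of the antigen that names the populations, had -1.78 and -0.529 in the authors' deposited table. Both genes thus lie on the negative side. Since each population has 1 library, no replicate spread exists and no test was made, and the sequencing depth behind each value was not analysed here. Because the statistic compares the libraries, it does not show the level of any gene, so the label of the cells could not be checked against marker levels.

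Promoter stretches of 9 members are shown first as examples, because both sides of the statistic hold genes with the same kind of element. RefSeq windows on GRCm38.p6, from 250 bases before to 50 after a start base, were found for 38 of the 49 members. Positions are counted from each window's own start base, which was an end of the RefSeq gene in 24 of the 45 windows. The ISRE-like motif searched was GAAANNGAAA on either strand, and the GAS-like motif was TTCNNNGAA, which reads the same on both strands. An ISRE-like match was present for 20 of the 38 genes (52.6%), against 3.99% of all 27025 genes with a window. Counted by window, 21 of their 45 windows (46.7%) held a match, against 3.44% of all 32851 promoter windows of the same length. A GAS-like match was present for 11 of the 38 genes (28.9%), against 9.55% of all genes with a window. By window, 24.4% of theirs held one, against 8.30% of all windows. In 2 places an ISRE-like match of a member overlapped a GAS-like one. A match describes the letters in the window and does not show binding.

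The first examples are Isg15 and Rsad2, which are among the 5 lowest members and have a match before the start, and 3 further negative-side genes of other families. Oas3, Igtp, Ifit3, Trim30a, Irgm1, Stat2 and Ifitm2 also have a match before the start and are not printed, and the choice was made after the values were seen. The stretches are printed 5′ to 3′ on the gene's strand with the ISRE-like letters in capitals, including overlapping matches. A match on the opposite strand reads TTTCNNTTTC. The stretches lie at chr4:156200855-156200916 (- strand) for Isg15, chr12:26456543-26456592 (- strand) for Rsad2, chr8:71537567-71537622 (- strand) for Bst2, chr19:34640765-34640833 (+ strand) for Ifit1 and chr5:120907526-120907565 (- strand) for Oas1a.
Isg15: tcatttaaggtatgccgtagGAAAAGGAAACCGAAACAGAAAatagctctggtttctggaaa
Rsad2: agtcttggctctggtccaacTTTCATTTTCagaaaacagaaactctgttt
Bst2: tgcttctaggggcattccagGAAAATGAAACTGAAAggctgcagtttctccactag
Ifit1: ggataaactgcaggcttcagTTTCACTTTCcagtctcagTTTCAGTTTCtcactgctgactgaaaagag
Oas1a: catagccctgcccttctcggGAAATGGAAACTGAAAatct

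The next stretches belong to 4 neighbouring Gbp genes, which lay on the positive side apart from Gbp2. They lie at chr3:142496749-142496798 (+ strand) for Gbp5, chr3:142530263-142530312 (+ strand) for Gbp7, chr3:142559979-142560034 (+ strand) for Gbp3 and chr3:142620584-142620633 (+ strand) for Gbp2.
Gbp5: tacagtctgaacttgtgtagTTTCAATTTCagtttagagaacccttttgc
Gbp7: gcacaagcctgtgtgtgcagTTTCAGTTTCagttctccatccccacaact
Gbp3: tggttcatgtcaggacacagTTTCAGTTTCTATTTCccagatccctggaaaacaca
Gbp2: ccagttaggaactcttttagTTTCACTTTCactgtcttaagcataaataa

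Isg15 held 3 overlapping ISRE-like matches, more than any other member. They run from -78 to -57 counted from the start, and the single match of Rsad2 runs from -120 to -111. Among the members with a window, negative genes were in the majority both with and without an ISRE-like match. In the authors' deposited table, 14 of the 20 genes with a match were negative, with a median of -0.110, and 14 of the 18 genes without one were negative, with a median of -0.136. Irf7 and Oasl1, at -0.623 and -0.690 in the authors' deposited table, had no ISRE-like match in their windows, and neither did Ifitm1 at 0.919.

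**Figure D1:**
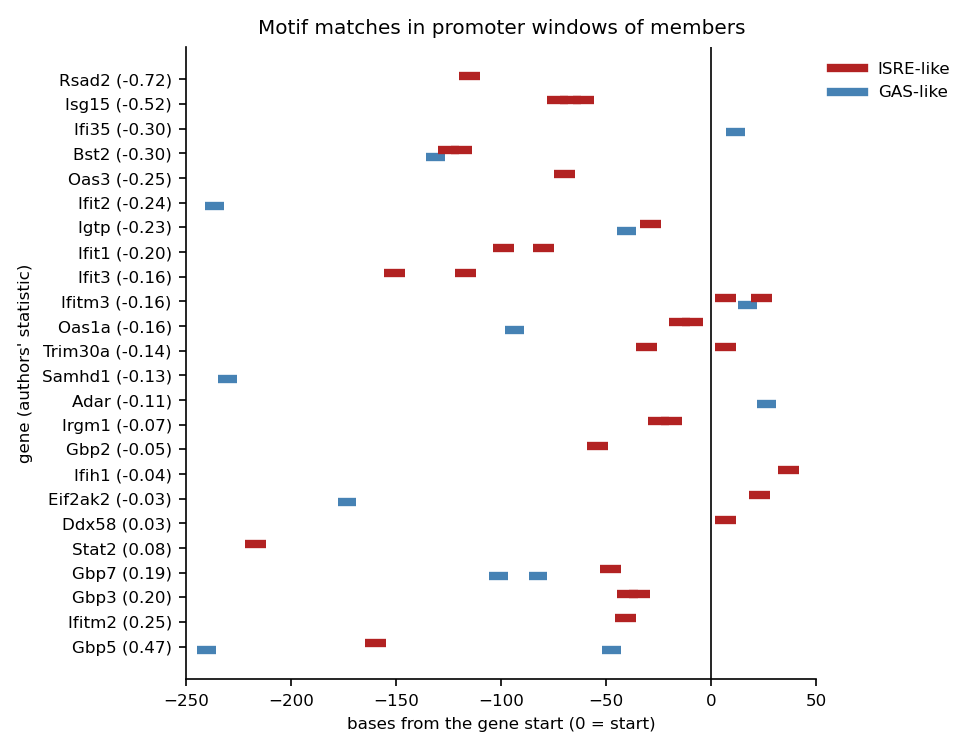
Positions of ISRE-like (red) and GAS-like (blue) matches in the promoter windows of members with at least 1 match. The horizontal axis gives bases from each window's start base. Genes run from the lowest statistic at the top to the highest at the bottom, and both ends of that order hold genes with ISRE-like matches.

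Most members lay on the negative side, at modest sizes. In the authors' deposited table, 37 of the 49 members were negative and 12 positive, and none was at 0. Negative genes made up 75.5% of the members, against 29.6% of all genes and 42.3% of the 16302 genes with a statistic other than 0. Positive genes made up 24.5% of the members, against 40.4% of all genes and 57.7% of those other than 0. The median of the members was -0.145 in the authors' deposited table, and that of all genes with a value other than 0 was 0.00512. At -0.5 or below stood 5 members, or 10.2%, against 0.988% of all genes, and at 0.5 or above stood 1 member, or 2.04%, against 3.77% of all genes, in the authors' deposited table. At the lower mark, 13 members (26.5%) stood at -0.25 or below, against 4.66% of all genes, and 2 members (4.08%) stood at 0.25 or above, against 9.9% of all genes, in the authors' deposited table. Among the 20 members whose transcripts share no 50-base stretch with another gene, a subset taken after the data were seen, the median was -0.237, with 3 members at -0.5 or below and 0 at 0.5 or above, in the authors' deposited table. The sizes are fixed marks with no error rate. All genes include 6982 with a statistic of exactly 0, which can pass no mark, whereas no member was at 0. Were the score weighted by expression level, rarely read genes would seldom pass a mark, and this was not tested. The members were chosen with earlier results of these data known, so the shares describe this list and give no independent support for a direction.

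**Figure D2:**
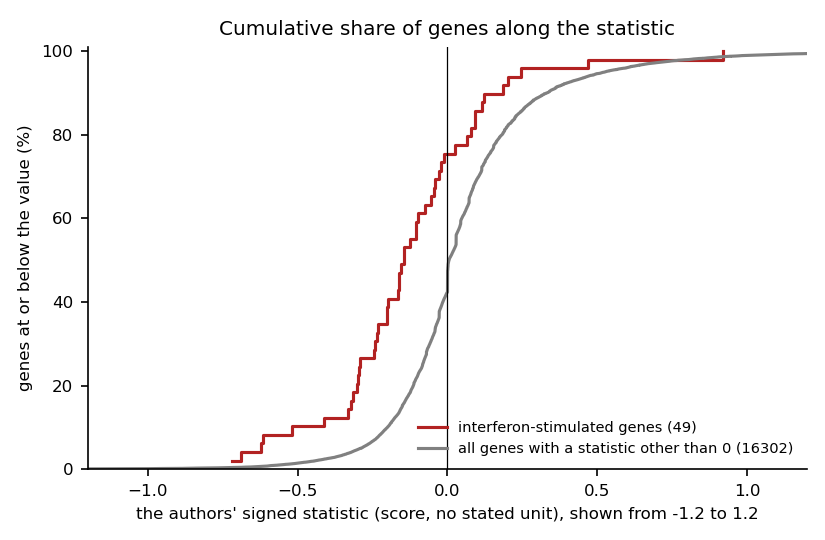
Cumulative share of genes in percent (vertical axis) along the authors' signed statistic (horizontal axis, score with no stated unit), for the 49 interferon-stimulated genes in red and the 16302 genes with a statistic other than 0 in grey. At 0 the red line stands at 75.5% and the grey line at 42.3%.

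The 5 members at -0.5 or below come from different branches of the response. Rsad2, which encodes viperin, a radical SAM enzyme that makes a chain-terminating nucleotide, had the lowest statistic of the members, -0.718, and rank 482 in the authors' deposited table. Oasl1, an oligoadenylate synthetase-like protein without synthetase activity that restrains Irf7 translation in mouse, followed at -0.690 and rank 532 in the authors' deposited table. Irf7, the transcription factor that amplifies type I interferon production, stood at -0.623 and rank 681 in the authors' deposited table. Ifi204, a PYHIN-family DNA sensor, stood at -0.617 and rank 697, and Isg15, a ubiquitin-like modifier, at -0.518 and rank 1034, in the authors' deposited table. Of all genes in that table, 0.266% lay at or below Rsad2 and 0.885% at or below Isg15. Ifi204 shares 30.2% of its distinct 50-base transcript stretches with other genes, most of them with Ifi211, so counting could have split its reads among paralogs.

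**Figure D3:**
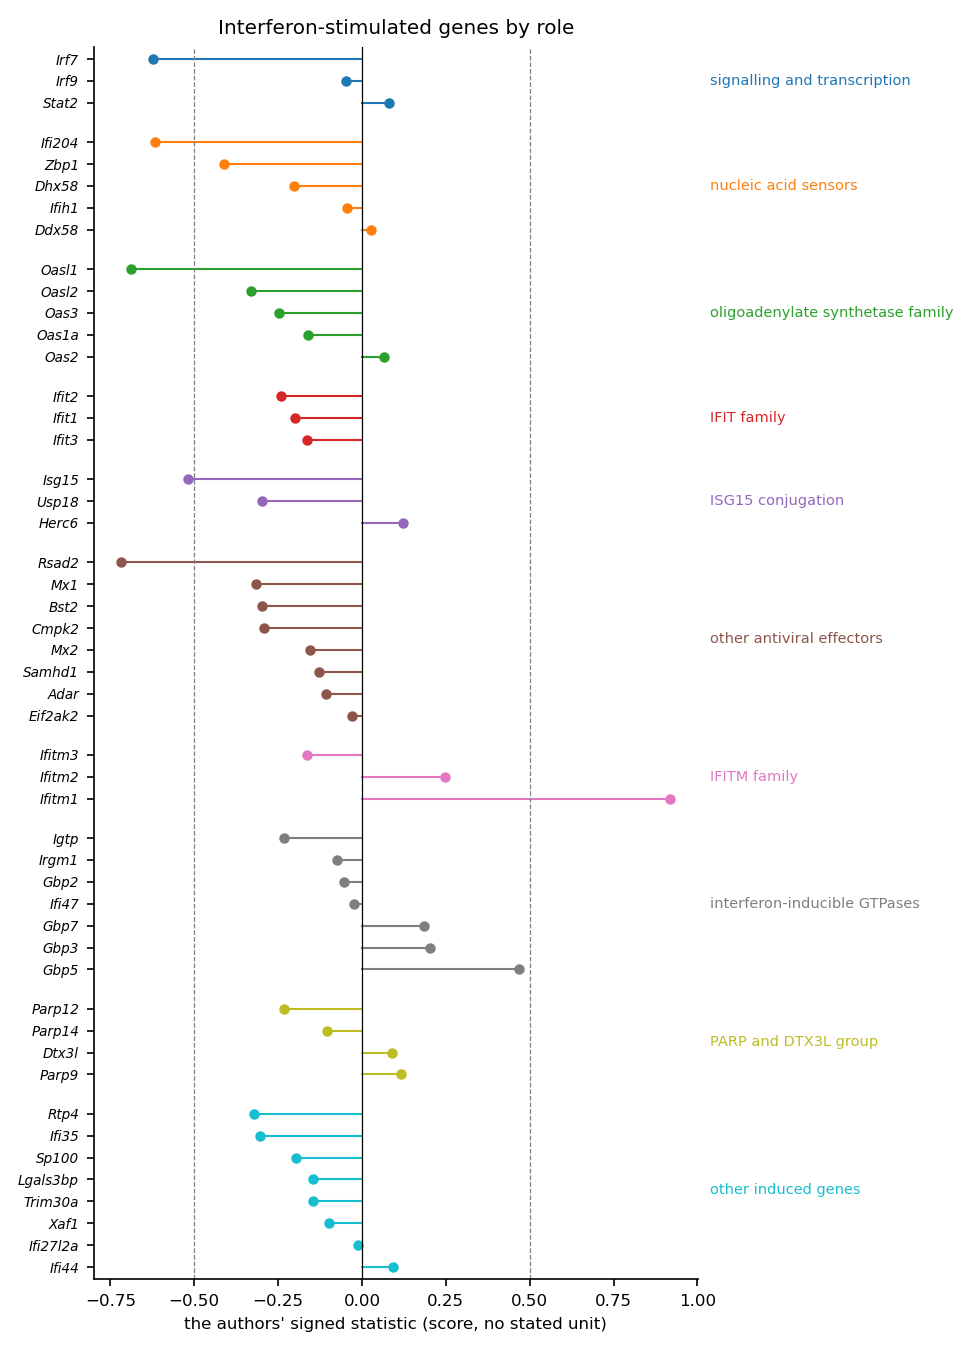
The authors' signed statistic (horizontal axis, score with no stated unit) of each of the 49 members, grouped by role, with dashed lines at -0.5 and 0.5. The points of 5 genes lie at or left of -0.5, from Isg15 to Rsad2, and Ifitm1 alone lies right of 0.5.

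Among the signalling genes Irf7 stood apart. Irf9, the DNA-binding subunit of the complex that reads the ISRE, had -0.0464 and Stat2, its STAT partner, had 0.0799 in the authors' deposited table. Both lay close to 0, at ranks 11791 and 9672 of 23284 genes in the authors' deposited table. Stat2 overlaps Apof over 753 bases on the RefSeq annotation.

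Of the 5 nucleic acid sensors, 4 were negative in the authors' deposited table. Zbp1, a sensor of left-handed nucleic acid that can start necroptosis, followed Ifi204 at -0.412 in the authors' deposited table. Dhx58, which encodes the RNA helicase LGP2, had -0.202 in the authors' deposited table. The RNA sensors Ifih1 (MDA5) and Ddx58 (RIG-I) lay near 0, at -0.0431 and 0.0263 in the authors' deposited table. The other PYHIN genes of the pathway lists lay on both sides. In the authors' deposited table Mnda, Pyhin1 and Ifi205 had -0.497, -0.228 and -0.209, and Aim2, Mndal and Ifi203 had 0.286, 0.183 and 0.00962.

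The oligoadenylate synthetases sense double-stranded RNA and make a second messenger of the antiviral response. Of the 5 family members, 4 were negative, with a median of -0.246 in the authors' deposited table. Oasl2 had -0.332, Oas3 -0.246 and Oas1a -0.161, and Oas2 was positive at 0.0644, in the authors' deposited table. Oas1a shares 57.6% of its 50-base stretches with Oas1g, which itself had -0.173 in the authors' deposited table, so the values of this pair are uncertain.

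The 3 IFIT genes, a family with members that bind viral RNA and block its translation, formed the tightest group of neighbours. Ifit2 had -0.243, Ifit1 -0.200 and Ifit3 -0.164 in the authors' deposited table, within 0.0782 of each other. Ifit3 shares 51.2% of its 50-base stretches with Ifit3b, and its value is uncertain for that reason. In the RefSeq annotation Ifit1 also lies wholly within the span of Ifit1bl1.

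The genes of ISG15 conjugation did not share a side. Usp18, the protease that removes ISG15 and dampens receptor signalling, had -0.297 in the authors' deposited table, beside -0.518 for Isg15. Herc6, the main ISG15 ligase in mouse, had 0.123 in the authors' deposited table. Herc6 shares 23.8% of its stretches with the gene model Gm45193. Ube2l6 and Uba7, the conjugating and activating enzymes of the pathway, stood on opposite sides at -0.254 and 0.158 in the authors' deposited table.

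All 8 other antiviral effectors were negative, with a median of -0.224 in the authors' deposited table. Rsad2 led them, and Cmpk2, a nucleotide kinase gene that neighbours it, had -0.293 in the authors' deposited table. Mx1 and Mx2, dynamin-like GTPase genes, had -0.315 and -0.155 in the authors' deposited table. RefSeq lists both as transcribed pseudogenes on the assembly of the C57BL/6J strain. Bst2, which encodes tetherin and tethers budding virions, had -0.298 in the authors' deposited table. Samhd1, a nucleotide-degrading restriction factor, had -0.127 and Adar, the RNA-editing deaminase, had -0.106 in the authors' deposited table. Eif2ak2, which encodes the kinase PKR, lay nearest 0 at -0.0290 in the authors' deposited table.

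The IFITM genes, which encode membrane proteins that hinder viral fusion, held the largest value of any member. In the authors' deposited table Ifitm1 stood on the positive side with 0.919, at rank 240. Ifitm2 had 0.246 and Ifitm3, its neighbour in the same cluster, had -0.163 in the authors' deposited table. Of all genes, 0.932% lay at or above Ifitm1 in the authors' deposited table. Ifitm2 shares 48.5% of its stretches with other genes and Ifitm1 6.36%, so Ifitm2 in particular is uncertain. Ifitm6, of the same family, had 0.234 and Ifitm5 had 0.611 in the authors' deposited table, both on the positive side.

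The interferon-inducible GTPases, which attack the vacuoles of intracellular microbes and respond strongly to interferon gamma, lay on both sides. Gbp5, a guanylate-binding protein that promotes inflammasome activation, came to 0.468, just inside the mark of 0.5, at rank 1262 in the authors' deposited table. Gbp3 had 0.202, Gbp7 0.186 and Gbp2 -0.0536 in the authors' deposited table. The 3 immunity-related GTPase genes Igtp, Irgm1 and Ifi47 were negative at -0.234, -0.0743 and -0.0230 in the authors' deposited table. Igtp shares 12.3% of its stretches with Irgm2, which had 0.171 in the authors' deposited table. Most other GTPase genes of the pathway lists were negative, with Gbp9 at -0.287, Gbp6 at -0.216, Tgtp1 at -0.112, Gm4951 at -0.0812, Gbp4 at -0.0635 and Iigp1 at -0.0512, in the authors' deposited table. Besides Irgm2, the positive ones were Tgtp2 at 0.360 and Gbp8 at 0.276 in the authors' deposited table, and Tgtp1 and Tgtp2 are close paralogs whose values are uncertain.

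The PARP and DTX3L genes encode ADP-ribosyltransferases and a ubiquitin ligase that works as a partner of PARP9. Parp9 and Dtx3l overlap head to head over 558 bases and had 0.116 and 0.0902 in the authors' deposited table. Without a stated strand setting, reads from that overlap cannot be told apart. Parp14, in the same cluster, had -0.104 and Parp12, on another chromosome, had -0.231 in the authors' deposited table.

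Most of the 8 other induced genes, 7 of them, were negative at small sizes in the authors' deposited table. Rtp4, a negative regulator of interferon responses, had -0.321 and Ifi35, a partner of NMI, had -0.303 in the authors' deposited table. Sp100, a nuclear body protein, had -0.197, Lgals3bp, a secreted glycoprotein, had -0.145, and Trim30a, a TRIM-family regulator of Toll-like receptor signalling, had -0.145 in the authors' deposited table. Xaf1, a pro-apoptotic gene, had -0.0997 and Ifi27l2a, a small membrane protein gene, had -0.0131 in the authors' deposited table. Ifi27l2a overlaps Ifi27 over 6057 bases and Rtp4 overlaps Masp1 over 1022 bases in the RefSeq annotation, so reads there could belong to either gene. Ifi44 was the positive gene of this group at 0.0927 in the authors' deposited table.

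Neighbouring members were then compared within 8 clusters, in which successive genes are at most 150 kb apart. In 4 clusters all members lay on the negative side, and in the other 4 they lay on both sides, in the authors' deposited table. The all-negative clusters were Rsad2 with Cmpk2 on chromosome 12, Mx1 with Mx2 on chromosome 16, the IFIT genes on chromosome 19 and Oasl2 with Oasl1 on chromosome 5. The IFITM cluster on chromosome 7, from 140954837 to 141010744 on GRCm38, was the widest of the 8 in value, with a range of 1.08 in the authors' deposited table. The Gbp cluster on chromosome 3, from 142496934 to 142638008, followed with a range of 0.522 in the authors' deposited table. In chromosomal order this cluster held Gbp5 at 0.468, Gbp7 at 0.186, Gbp3 at 0.202 and Gbp2 at -0.0536 in the authors' deposited table.

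**Figure D4:**
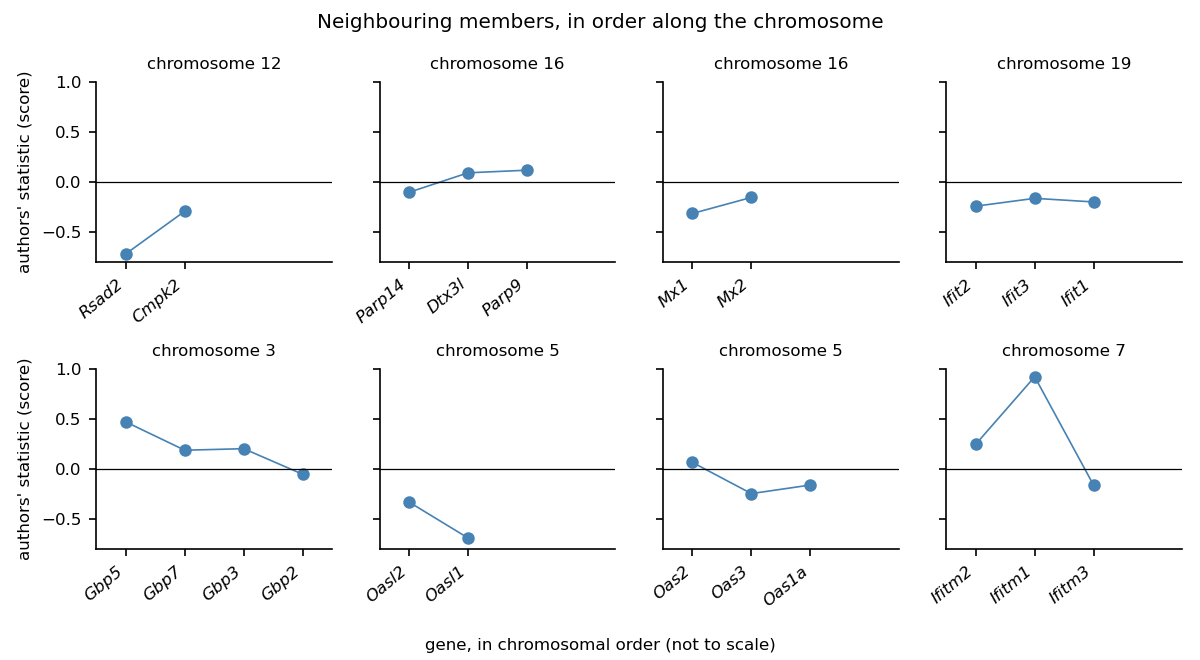
The authors' signed statistic (vertical axis, score with no stated unit) of members in each of 8 clusters, with genes in chromosomal order on the horizontal axis, not to scale. The IFITM panel on chromosome 7 spans both sides of 0, from -0.163 to 0.919, and the IFIT panel on chromosome 19 is nearly flat.

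Genes upstream of the members lay on both sides. For comparison, 57.7% of all genes with a statistic other than 0 were positive, and the shares of positive receptor, sensor and adaptor genes were near that background. Of the listed type I and III interferon ligand genes, 16 were found in the authors' deposited table, all of them type I. The listed type III genes, Ifnl2 and Ifnl3, were not found there. Of the 16 genes found, 14 had a statistic of exactly 0, among them Ifnb1, and Ifng was also at 0, in the authors' deposited table. A statistic of 0 does not show whether a gene was detected. Of 5 receptor genes 3 were positive, with Ifngr1 at 0.430, Ifngr2 at 0.152 and Ifnar1 at 0.130, while Ifnar2 and Il10rb were negative at -0.0588 and -0.285, in the authors' deposited table. Of 11 kinase and transcription factor genes 9 were positive, with a median of 0.132 in the authors' deposited table. The kinase gene Jak2 had 0.605 and Irf4, a factor of dendritic cells and alternative activation, had 1.56 in the authors' deposited table. Irf1, an early target of interferon gamma, had 0.397, Irf2 had 0.258, Irf5 0.140, Irf3 0.132 and Tyk2 0.113 in the authors' deposited table. Stat3 lay near 0 at 0.0551, as did Irf8 at -0.0475 and Jak1 at -0.0837, in the authors' deposited table. Of 18 sensor and adaptor genes 12 were positive and 6 negative, and the RNA sensor gene Tlr3 at 0.474 and the RIG-I ligase gene Trim25 at -0.373 marked the ends, in the authors' deposited table.

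The other genes listed as interferon targets were split nearly evenly between the sides. Of the genes listed as further type I targets, 51 had a value other than 0. Of these 51, 25 were negative and 26 positive, with a median of 0.00276, in the authors' deposited table. Ms4a4c, a tetraspan-like membrane protein gene, at -0.726 and Lgals9, the galectin-9 gene, at -0.533 stood below -0.5 in the authors' deposited table. Slfn9 at 0.516 and Ifitm5, listed here as an IFITM family gene, at 0.611 stood above 0.5 in the authors' deposited table. Whether each listed gene, Ifitm5 among them, responds to interferon was not tested. Among 15 genes listed as targets mainly of interferon gamma, 7 were negative and 8 positive in the authors' deposited table. The positive ones include Ido1 at 2.42e-06 and Cxcl11 at 0.0288 in the authors' deposited table, both near 0. The class II transactivator gene Ciita led these at 1.73, and Cxcl10, a chemokine of both interferon types, had 0.459 and Cxcl9 0.0471 in the authors' deposited table. The genes listed as negative regulators divided into 5 negative and 5 positive ones in the authors' deposited table. Cish at 0.693 and Socs3 at 0.536 were the largest, and Socs1 had -0.0552, in the authors' deposited table. Isg20, at -0.172 in the authors' deposited table, is counted both in this list and among the further type I targets. In the authors' deposited table the cytokine subunit genes Il12b and Ebi3, of cytokines that act on interferon gamma production, had 1.90 and 0.643.

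**Figure D5:**
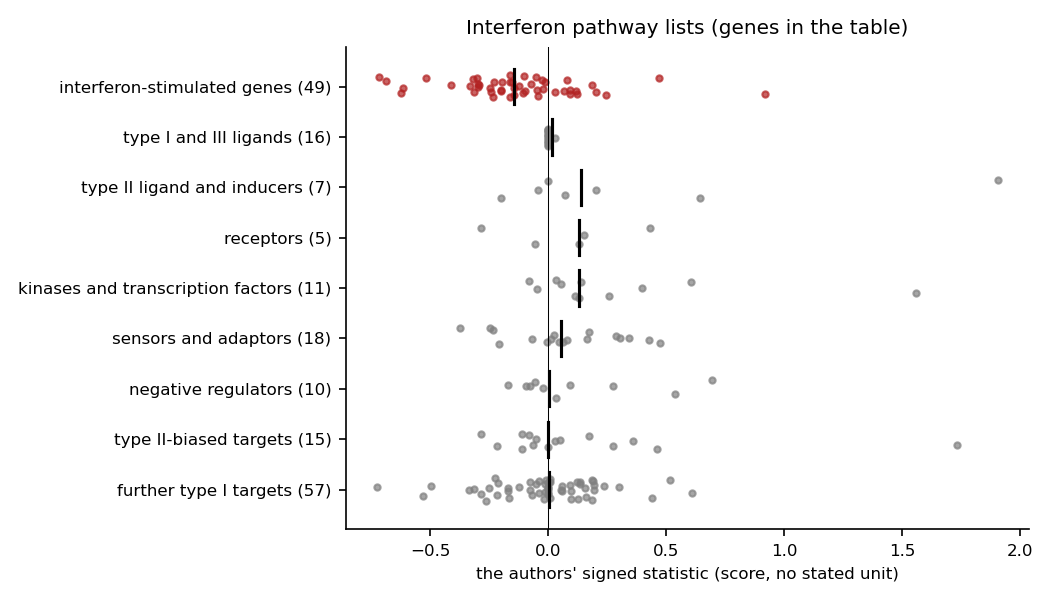
The authors' signed statistic (horizontal axis, score with no stated unit) of the 49 members in red and of the pathway lists in grey, with each list's number of genes in the table in brackets and black bars at the median of genes with a value other than 0. The members' median is -0.145, and the medians of all other lists lie at or above 0.

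Markers of other cell types lay unevenly on the same scale. All 7 dendritic cell markers were positive, from 0.237 to 2.84, and all 6 fibroblast markers were positive, from 0.871 to 2.14, on the side of Ifitm1 and Gbp5, in the authors' deposited table. Of 8 macrophage markers 7 were negative, from -0.786 to -0.208, on the side of most members, and Csf1r was positive at 0.248, in the authors' deposited table. Endothelial markers divided into 4 negative and 2 positive genes, with a median of -0.191, in the authors' deposited table. Of 8 plasmacytoid dendritic cell markers, which mark a major source of type I interferon, Ly6d and Klk1 were at 0 and the rest lay between -0.0188 and 0.175 in the authors' deposited table. Of 5 neutrophil markers all were above 0, but only S100a8 at 0.544 and S100a9 at 0.446 were clearly so in the authors' deposited table. Camp, Retnlg and Ngp lay near 0, at 0.0719, 0.0450 and 2.42e-06 in the authors' deposited table. Lymphocyte markers ranged from -0.0812 to 0.196 in the authors' deposited table. Fewer cells of a type and less RNA per cell cannot be told apart in bulk samples, and the part of these markers in the members' values was not tested.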

How the data were processed

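RNA was sequenced from 1 library each of Ly6Chi and Ly6Clo macrophages. Per the submitters' processing notes, CASAVA 1.8.2, TopHat and the mouse build mm10 were used. The sources used here name no counting program, annotation or strand setting, and no program behind the statistic. The authors deposited a signed score per gene and its rank, and the recomputed rank by size matched to within 1e-06 for all 23284 genes. If the score is weighted by expression level, as the letters WAD in the table's name may mean, a rarely read gene scores near 0 even at a large ratio. No label identifies the table's 2 columns of single-library values, which were not used, so CPM, fold changes, counting intervals and depth were not computed.

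The members and lists were chosen with earlier results of these data known. Members were matched by symbol; all are accounted for, and pathway genes outside the list were named when their size reached 0.5 or they are a receptor, kinase or transcription factor of the pathway. The PYHIN, GTPase, IFITM and ISG15-pathway relatives below that size were chosen after their values were seen. So were Oas1g, Isg20, Tlr3, Trim25, Socs1, Cxcl9, Cxcl10, Cxcl11, Ido1, Ifnb1, Ifng and the cell type markers with a value. A few genes of the lists are counted and not reported by name. Medians cover genes with a score other than 0. Promoters and gene positions came from RefSeq on GRCm38.p6, the assembly of mm10. Shared sequence is the percent of distinct 50-base stretches of a member's longest protein-coding GENCODE M21 transcript found in a transcript of another gene. The motif search and counts were tested on simulated data. Alternatives covered the size mark, the mean, members at 0, small scores, the promoter window and shared sequence. Python 3.11.15, pandas 2.3.3, NumPy 2.4.6, SciPy 1.17.1 and Matplotlib 3.10.9 were used.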

Additional observations from a re-analysis of the deposited data

How the results depend on the processing

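No paired analysis was possible because 1 library per population gives no pairs, and no library could be left out. CPM and its other settings for scaling, pseudocount and count minimum were not run, since no label identifies the columns per library. The median of -0.145 in the authors' deposited table became -0.129 as a mean, -0.201 for members of size 0.1 or more, and stayed as it was with members at 0 included, since none was at 0. All 3 values lie within the 95% binomial interval of the median, from -0.202 to -0.0536, which treats members as independent and covers no replicate error. These alternatives reuse values of the same members, so lying within that interval gives no independent support. Among the 20 members that share no 50-base stretch with another gene, an alternative chosen after seeing the data, the median was -0.237, outside that interval, and 3 members stood at -0.5 or below and 0 at 0.5 or above. Against 5 members at -0.5 or below and 1 at 0.5 or above, raising the mark to 1 left 0 on each side, and lowering it to 0.25 gave 13 negative and 2 positive members. Synonyms added no member. An ISRE-like match was found for 20 members in the whole window and for 16 in the 250 bases before the start. The unknown scale of the score and the missing replicates limit every value.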
